A study of Mus musculus with 8 samples.

Results

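The 2 keratin gene clusters of the mouse were followed as DNase I hotspots, regions enriched in cuts by DNase I and thus in open chromatin, in 8 DNase-seq libraries. Members were all hotspots that start, on build mm9, within a window on chromosome 15 (type II keratins) or on chromosome 11 (type I keratins). The first and last type II sites start at 101004011 and 102033249, and the first and last type I sites at 98900933 and 100196966. The windows were fixed by position and not by density, with Krt8 and Krt18 near the distal end of the first and Krt19 and Krt14 near the distal end of the second. They held 730 hotspots of the 8 lists. Joining those that share 1 bp or more gave 191 sites, 84 in the type II and 107 in the type I window, of 99999 merged sites in the whole series. All libraries came from 3134 cells, an epithelial line from mouse mammary gland, either the parental line or 1 of 3 derived lines with a tetracycline-repressed dominant-negative ATPase. These were DNBrg1 (Brg1, an ATPase of SWI/SNF complexes), DNCHD4 (Chd4, of the NuRD complex) and DNSnf2h (Snf2h, of ISWI complexes). Per the labels' protocols, DNSnf2h carries FLAG-tagged human SNF2H with lysine 211 changed to arginine, and DNCHD4 carries triple-FLAG mouse Chd4 with lysine 250 changed to cysteine. Both genes were put into cells with the tetracycline transactivator by retroviral vectors. How the DNBrg1 line was made, whether a line is 1 clone, and whether the parental line holds the transactivator is not stated in the labels. All cells were grown for 48 hours with tetracycline, which keeps the dominant-negative protein off, or without it. Each of the 4 lines gave 1 library in each state, so no difference within a line has a replicate check, and none was tested.

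Keratins are the intermediate filament proteins of epithelial cells, and each filament pairs a type I with a type II keratin. Nearly all type II genes lie in 1 cluster and nearly all type I genes in another. Krt18 is the exception, a type I gene beside its partner Krt8 in the type II cluster. Krt8 and Krt18, with Krt7 and Krt19, are keratins of simple epithelia and of luminal mammary cells. Krt5 and Krt14 pair in basal mammary cells and in the basal layer of stratified epithelia. Most other members serve the differentiated epidermis, the hair shaft and the inner root sheath, and the type I cluster also holds genes of keratin-associated proteins, which crosslink the filaments of hair.

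In the RefSeq gene order of build GRCm38.p6, 27 protein-coding genes run from Krt80 to Krt18 on chromosome 15, of which 26 are keratins. By lists drawn up for this work, 3 of the 26 belong to simple epithelia, 11 to stratified epithelia and 9 to hair and root sheath. On chromosome 11, 65 protein-coding genes run from Krt222 to Krt42, among them 27 keratins and 23 genes of keratin-associated proteins. These runs of genes were not matched to the limits of the windows, which may also hold other genes. The hotspots are on build mm9 and no mm9 annotation was used, so no site is assigned to a gene, an exon, an intron or a UTR. The sequences of the hotspots themselves were not used here either. The 2 sequences that follow are the RefSeq promoters, from 250 bases before to 50 after the start, of the genes that anchor the distal end of the type II window. Krt8 is chr15:102004293-102004592 on the minus strand and Krt18 is chr15:102027966-102028265 on the plus strand. Both positions are on GRCm38.p6 and cannot be read against the mm9 positions of the sites. Capitals mark TATAAA on either strand.
Krt8: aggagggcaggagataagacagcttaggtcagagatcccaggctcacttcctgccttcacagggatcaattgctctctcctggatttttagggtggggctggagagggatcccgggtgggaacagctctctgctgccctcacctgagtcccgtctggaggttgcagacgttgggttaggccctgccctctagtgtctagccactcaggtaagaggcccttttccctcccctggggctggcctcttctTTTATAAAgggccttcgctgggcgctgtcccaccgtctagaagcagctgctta
Krt18: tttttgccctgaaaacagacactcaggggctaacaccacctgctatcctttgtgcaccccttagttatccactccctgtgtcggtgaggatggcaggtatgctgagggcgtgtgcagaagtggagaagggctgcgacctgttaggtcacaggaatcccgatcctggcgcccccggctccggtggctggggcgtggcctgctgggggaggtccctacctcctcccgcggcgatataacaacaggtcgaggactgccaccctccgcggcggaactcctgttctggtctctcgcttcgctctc
The Krt8 window matched TATAAA at base 250 and its reverse complement at base 248, and the 2 matches overlap. Both lie at the annotated start and not well before it. No searched motif matched in the Krt18 window, which holds 17 CpG dinucleotides against 6 for Krt8 and has a GC content of 61.3% against 58.0%. Each motif was searched on both strands. TATAAA stands for the core promoter element of that name and TGANTCA for the sites of AP-1 factors. CCGCCC is the GC box, and AACCGGTT the site of grainyhead-like factors of epithelia. TTGCNNCAA stands for C/EBP factors. CCACTAG is part of the motif of CTCF, as is the variant CCACCAG.

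The promoters of the gene lists differed most in TATAAA. It was present in 13.6% of all 32851 RefSeq promoters, but in 13 of 17 promoters of hair and root sheath keratins (76.5%) and in 20 of 21 of keratin-associated proteins (95.2%). Keratins of stratified epithelia had it in 3 of 13 and those of simple epithelia in 2 of 5. The GC box CCGCCC was in 35.7% of all promoters, in 1 of 5, 0 of 13, 1 of 17 and 0 of 21 of the simple, stratified, hair and keratin-associated lists. The promoter table matched 5 of 6, 12 of 20, 17 of 24 and 21 of 23 genes of these lists. A match describes letters and not a bound site.

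Hotspots crowded both ends of the type II window and were scarce between them. The window was divided into 3 segments of 350 kb. The proximal segment held 40 sites, the middle 10 and the distal 34. Per library, the proximal segment had 14 to 35 hotspots, the middle 1 to 10 and the distal 14 to 30. The highest density in the middle was 29.9, against 295 in the proximal and 350.3 in the distal segment. None of the 15 type II sites listed in all 8 libraries lay in the middle segment: 7 were proximal and 8 distal. The longest stretch without a hotspot in any library ran 115 kb, from 101419116 to 101534580. With sites of 1 library left out, it ran 200.1 kb, from 101603842 to 101803949. The map of peak density along the windows shows the 2 flanking groups in each line.

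**Figure D1:**
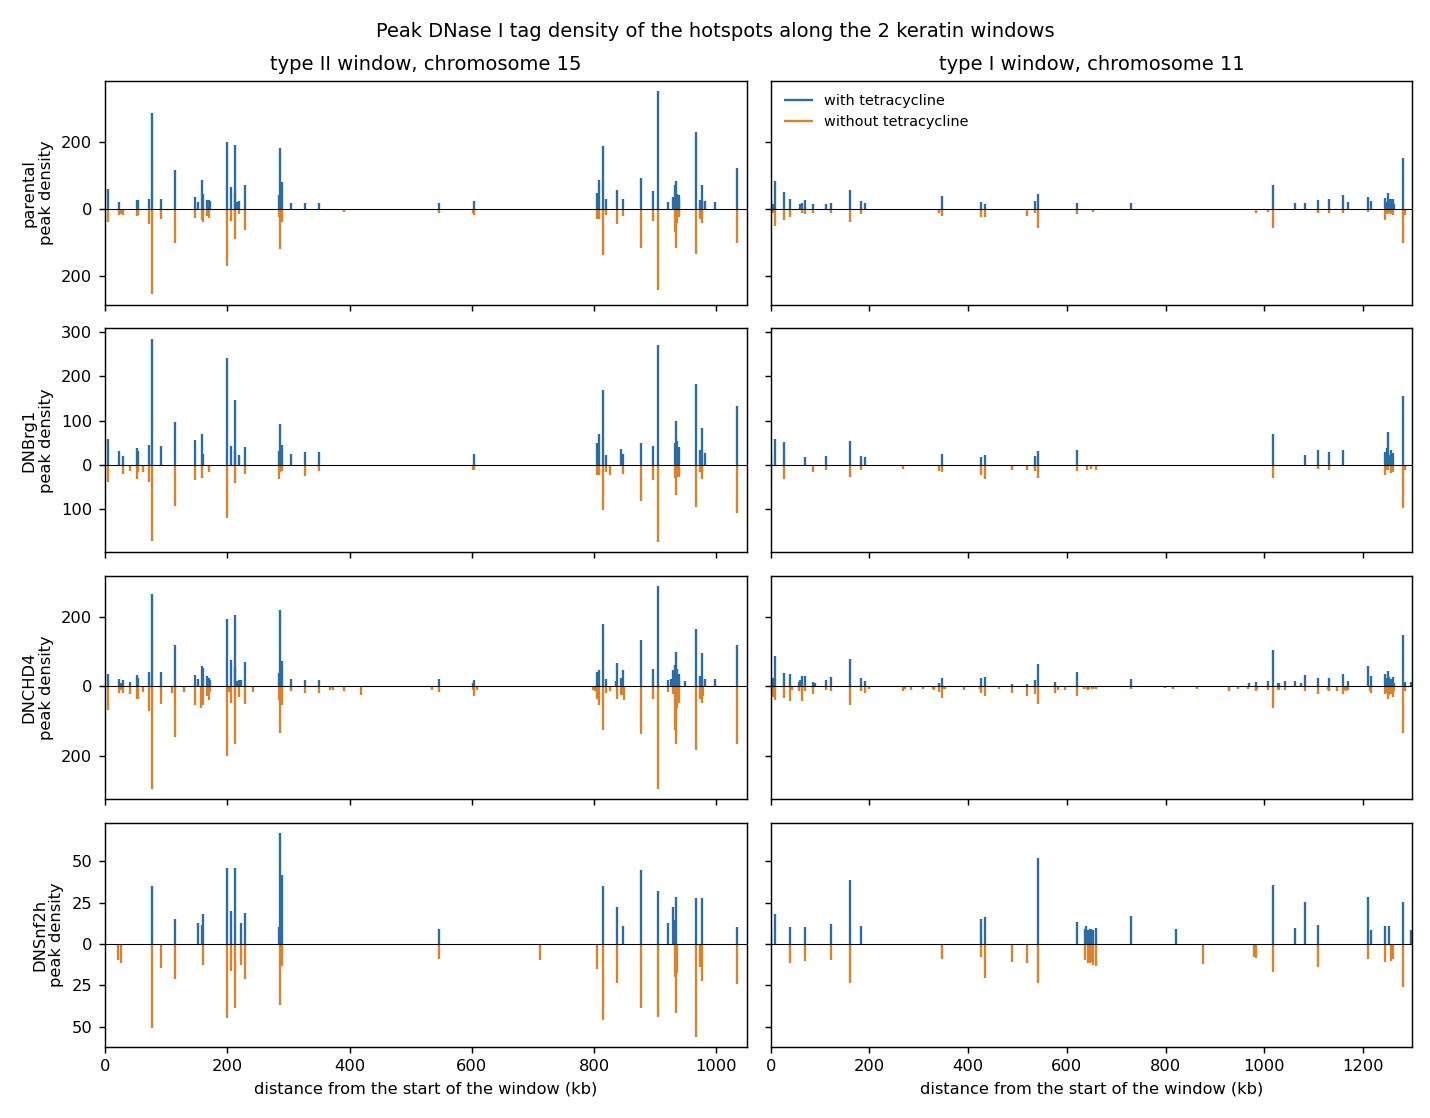
Peak tag density (vertical axis, as deposited, with its own scale in each row) of every site against its distance from the start of the window (kb), by line. Lines above 0 are with and lines below 0 without tetracycline. In the type II window the 10 sites of the middle segment stay under 30 in every library, and the DNSnf2h row runs on a scale several times smaller than the others.

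The type I window was weaker, and more evenly filled when the sites of all libraries are pooled. Its 3 segments of 433 kb held 35, 33 and 39 sites from proximal to distal, but 3, 1 and 4 of the sites listed in all 8 libraries. Of the 33 middle sites, 19 were listed in 1 library. Per library, the segments had 7 to 32, 3 to 22 and 11 to 31 hotspots. The middle had the fewest in every parental, DNBrg1 and DNCHD4 library, as in parental cells with tetracycline (17, 4 and 18). In both DNSnf2h libraries it had the most (9, 13 and 11 with tetracycline). The highest densities of the segments were 87.5, 64.8 and 156. With sites of 1 library left out, the longest empty stretch ran 252 kb, from 99630258 to 99882575. Of the 107 type I sites, 50 were listed in 1 library (46.7%), against 21 of 84 type II sites (25.0%) and 51.4% in the whole series. Sites in all 8 libraries made up 7.48% of the type I, 17.9% of the type II and 12.6% of all sites. Of the 71 single-library sites of both windows, 49 came from DNCHD4 cells without tetracycline, the longest list of the series. That is 69.0%, against 62.2% over the series.

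**Figure D2:**
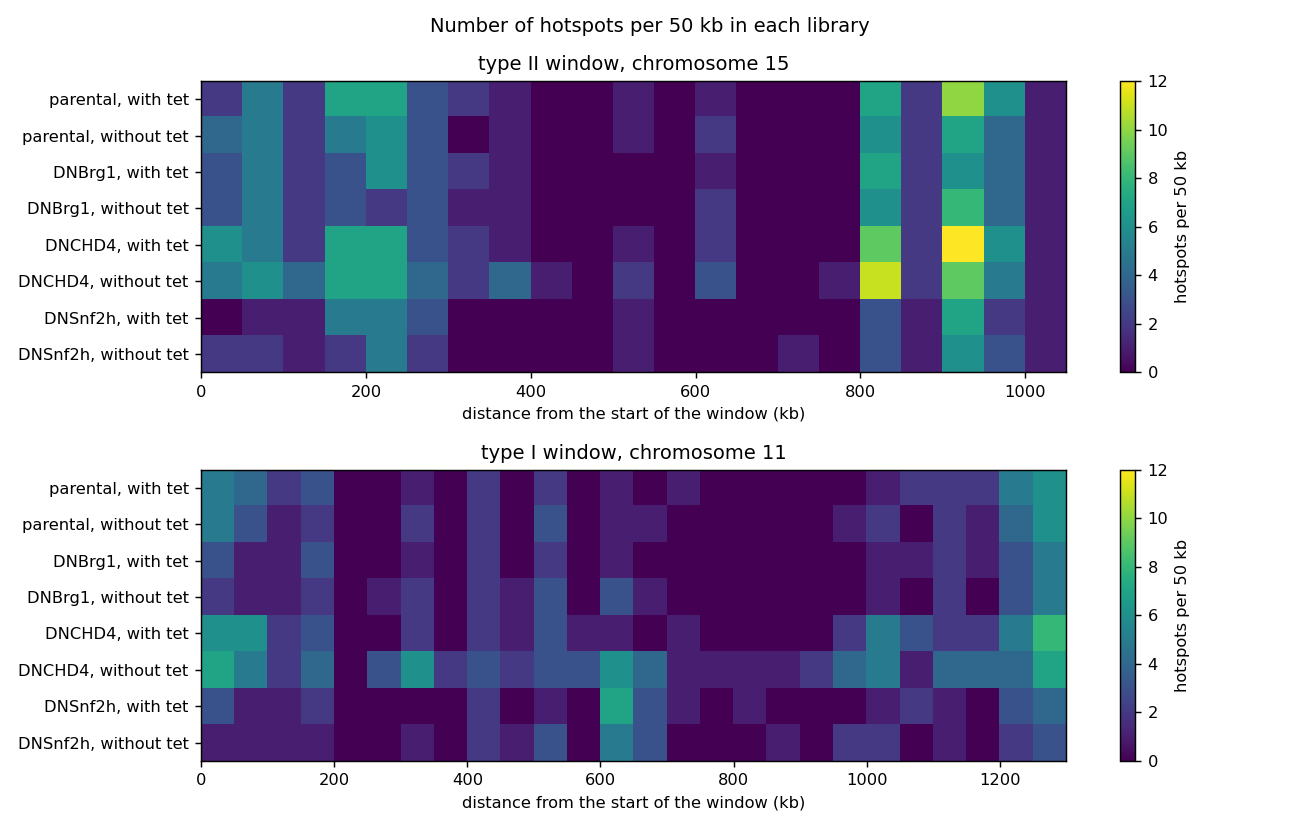
Number of hotspots (colour) in each 50 kb bin along the 2 windows (horizontal axis, kb from the start) in each of the 8 libraries (rows). The type II window shows 2 filled ends around a middle with several bins empty in most libraries, and no bin of a single library holds more than 12.

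Both windows had more hotspots per Mb than the genome in every library, 28.6 to 70.5 in the type II and 20.8 to 65.4 in the type I window against 9.68 to 30.4 overall. Chromosome 11 is itself hotspot-rich: in parental cells without tetracycline the type I window had 27.7 hotspots per Mb and the whole chromosome 21.97. For the type II window and chromosome 15 the values in that library were 46.7 and 14.9. The lists had 24890 to 78093 hotspots, began at a density of 5.09 to 16.4, and have no known total depth. One tag corresponds to 0.179 to 0.586 density units, and every listed hotspot rests on 26 tags or more.

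The strongest site of the type II window, from 101903755 to 101904718, ranked within the top 1.13% of the parental list with tetracycline. In parental cells its density was 350.3 with and 241 without tetracycline. DNBrg1 had 271 and 173 there, DNCHD4 290.2 and 297, DNSnf2h 31.9 and 43.9. All 6 libraries of the first 3 lines lay above both DNSnf2h libraries. The next site, from 101076406 to 101077442, had 286 and 255 in parental cells. The DNBrg1 values were 285 and 171, those of DNCHD4 268 and 295, those of DNSnf2h 34.7 and 50.6. A wide site from 101198430 to 101201558 had 198 and 170.2, 241 and 119, 195 and 200.3, and 45.6 and 44.3 in the same order. At these 3 sites DNCHD4 differed by at most a factor of 1.101 between the states (95% interval 1.02 to 1.18), and DNBrg1 was lowest, of the first 3 lines, without tetracycline. The strongest type I site, from 100180692 to 100182211, was weaker than these. Parental cells had 153 and 103, DNBrg1 cells 156 and 98.2, DNCHD4 cells 147 and 134, DNSnf2h cells 25.6 and 26.2. Of the type I sites listed with tetracycline in parental cells, 1 of 38 reached the top 10% of the list by density, against 7 of 54 type II sites.

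**Figure D3:**
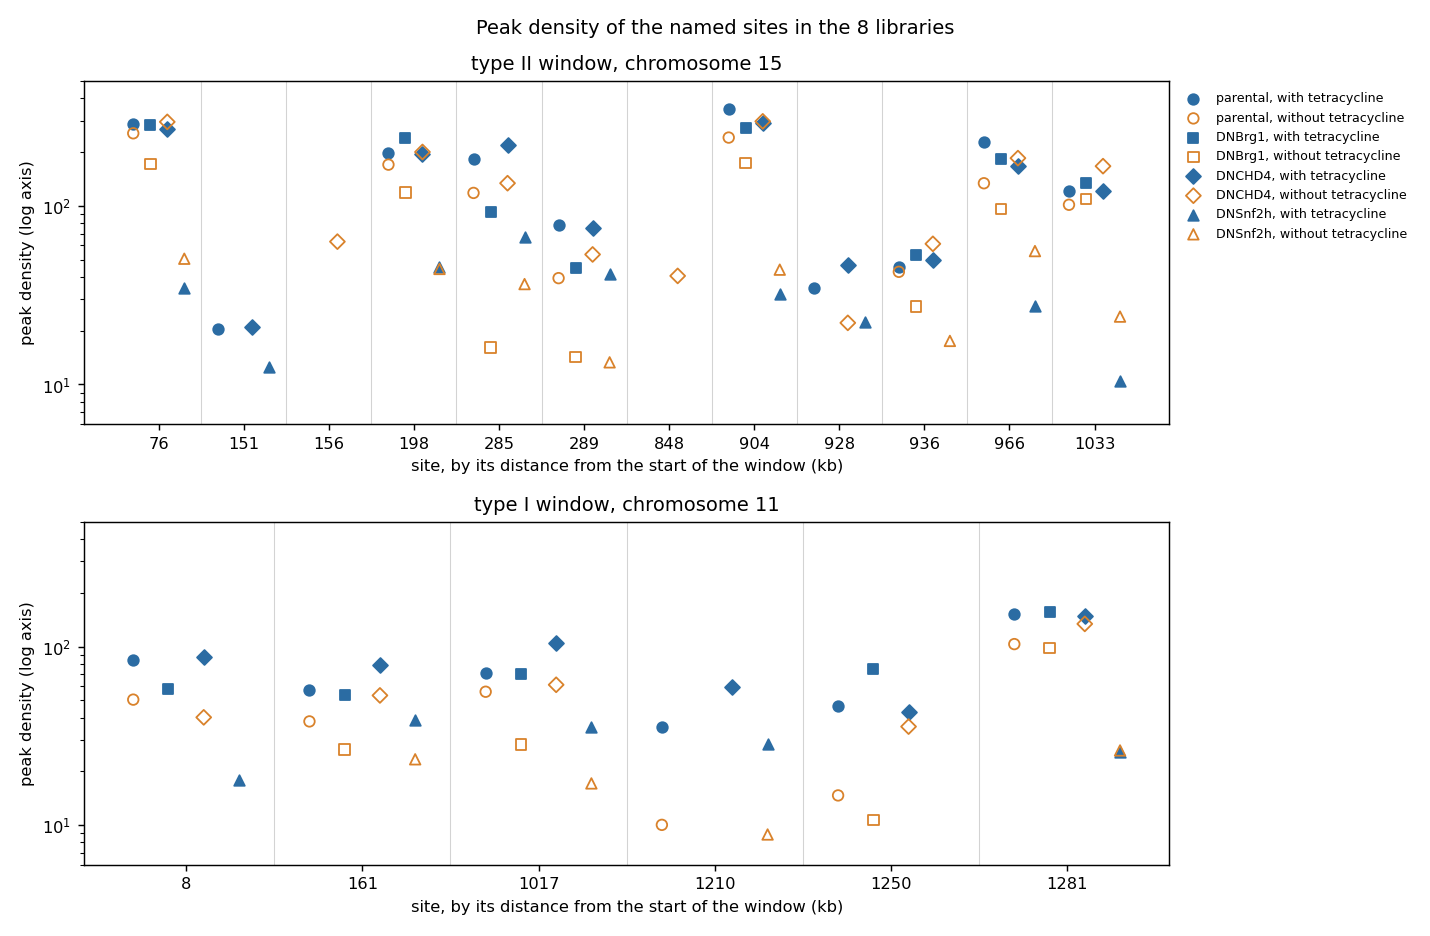
Peak density (log axis) of the named sites in the 8 libraries, by distance of the site from the start of its window (kb). Filled symbols are with and open symbols without tetracycline, shapes are the 4 lines, and a missing symbol is a site not listed. At 4 of the 5 strongest type II sites both DNSnf2h triangles lie below every other symbol, and single open diamonds mark the 2 sites that only DNCHD4 cells without tetracycline listed.

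With tetracycline, the DNCHD4 line was close to the parental line at these loci, as over the series. It listed all 92 sites of the parental library, while over the series it shared 98.5%. Its median log2 ratio to the parental library was 0.01 (SD 0.40 across sites), beside 0.04 over the series. DNBrg1 shared 68 of the 92 sites at a median of -0.02 (SD 0.47), as over the series. In the type II window the DNBrg1 median was -0.0031 over 42 sites, while the whole of chromosome 15 stood at 0.25 over 1196 sites. DNSnf2h shared 46 of the 92 sites, while over the series it shared 58.1%. Its median log2 ratio was -1.72 (SD 0.89) over 25 type II and -0.99 (SD 0.82) over 21 type I sites, beside -1.51 over the series. The lower ratio went with stronger sites. Where the parental density was 100 or more, all 10 sites were listed in DNSnf2h at a median log2 ratio of -2.74. Where it was under 25, 12 of 35 sites were listed, at -0.56. The DNSnf2h list begins at 8.03, which limits how negative the ratio of a weak listed site can be. Parental density is also the denominator of the ratio, so a lower ratio at stronger sites is partly built in. In the same 2 groups the medians were -0.18 and 0.40 in DNBrg1, and -0.04 and 0.03 in DNCHD4. The trend was not compared with the series.

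Several sites open in parental cells were in neither library of a derived line. DNBrg1 lacked 8 of the 72 sites that both parental libraries listed (11.1%, against 12.6% over the series), and DNSnf2h lacked 27 (37.5%, against 26.4%). DNCHD4 lacked 0 of 72, and 17 of 28770 over the series. The strongest of the 8 sites absent from DNBrg1 ran from 101837182 to 101838061 on chromosome 15. Parental cells had 55.8 with and 44.02 without tetracycline, DNCHD4 cells 66.4 and 37.6, DNSnf2h cells 22.2 and 23.6. It was named after its values were seen. The DNBrg1 lists begin at 16.4 and 9.19.

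In parental cells, whose labels name no dominant-negative protein, most hotspots of the keratin windows had a lower deposited density without tetracycline. So did most hotspots of the series. Among sites listed in both libraries, 63 of 72 were lower (87.5%), against 23945 of 28770 over the series (83.2%). Relative to the median of the series, 40 of 72 were lower, against 14382 of 28770. Ratios are densities without over with tetracycline, as deposited, and a site counted as changed from 2-fold. Of 102 sites listed in either library, 17 were at least 2-fold lower (16.7%), against 9.71% over the series, and 0 were at least 2-fold higher, against 0.666%. Over the 72 sites with a hotspot in both libraries the median log2 ratio was -0.51 (SD 0.51), beside -0.40 over the series. With the median of the series set to 0 (centred), 5 sites were lower, against 2.3% over the series, and 1 was higher, against 2.59%. The count of 17 was 10 at a common threshold and 9 among sites listed in both libraries.

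All 7 type I sites that were lower in parental cells lay in the distal segment, among 20 sites there, where the median log2 ratio was -0.98 over 12 sites. After centring, 3 sites of the segment were lower. Over the series 9.71% were lower as deposited and 2.3% after centring. A site from 100110070 to 100110947 had 35.3 with and 10.04 without tetracycline, 3.52-fold lower (95% interval 2.43 to 5.20, counting error only). A site from 100150089 to 100150838 had 46.2 and 14.7, 3.15-fold lower (2.31 to 4.35). Both stayed past 2-fold after centring, at log2 ratios of -1.41 and -1.25. In the type II window a site from 101927972 to 101928966 had 34.7 with tetracycline and no hotspot without it. The fall is at least 3.46-fold, taking the minimum of the other list as a bound. Within 50 kb that list held 12 hotspots, the lowest at 16.2, and against that value the fall would be smaller.

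**Figure D4:**
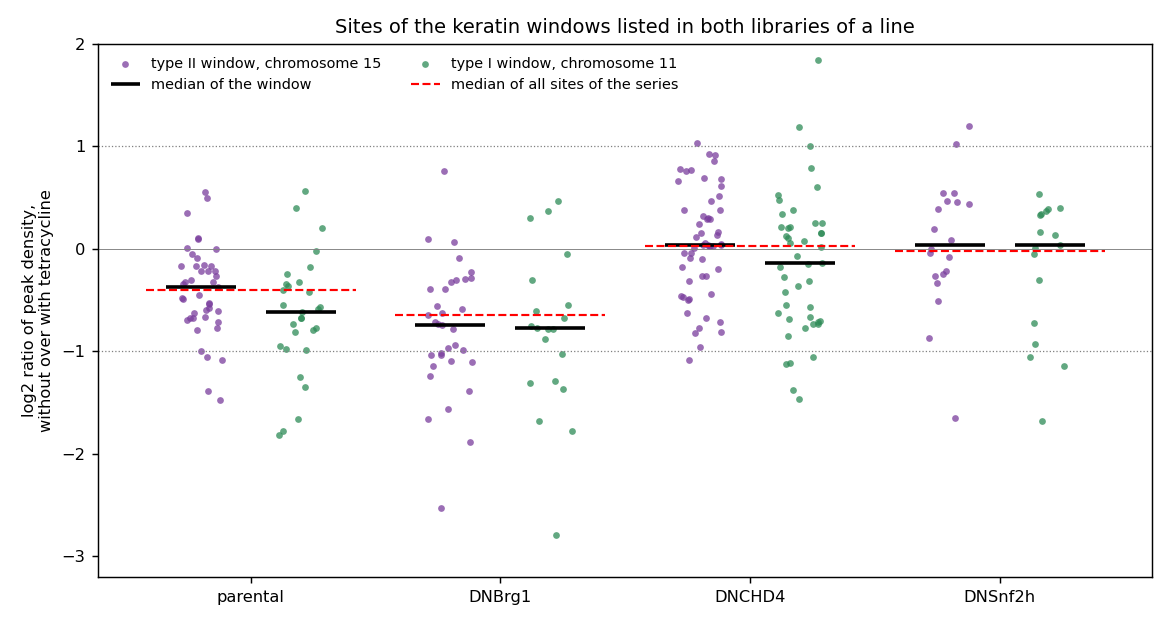
Log2 ratio of peak density, without over with tetracycline (vertical axis, as deposited), of each site listed in both libraries of a line, by line and window. Black bars are the medians of the windows, dashed red lines the medians of all sites of the series, and dotted lines mark 2-fold. In parental and DNBrg1 cells most points lie below 0, and in each line the window medians lie within 0.25 of the median of the series.

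On the deposited scale, DNBrg1 cells had the most sites of the windows at least 2-fold lower without tetracycline. After centring DNCHD4 had more by count, but from more sites. It had 22 of 174 (12.6%), and DNBrg1 14 of 86 (16.3%). As deposited, 34 of the 86 DNBrg1 sites were at least 2-fold lower (39.5%, against 29.6% over the series). At least 2-fold higher were 0 (against 0.26%). The median log2 ratio of 54 sites was -0.76 (SD 0.68), beside -0.64 over the series. After centring, 14 sites were lower (against 8.89%) and 4 higher (against 2.87%). At a common threshold 18 were lower, and among sites listed in both libraries 19 were.

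The greatest fall in DNBrg1 cells was at the type I site from 100150089 to 100150838, which went from 74.4 to 10.7, 6.94-fold lower (4.86 to 10.1). This is the site that was 3.15-fold lower in parental cells. DNCHD4 had 43.1 and 35.6 there, and neither DNSnf2h library listed it. In the distal type I segment as a whole, 8 of 13 sites were lower in DNBrg1, at a median log2 ratio of -1.29 over 9 sites, and 4 were lower after centring. Over the series 29.6% were lower in DNBrg1 as deposited and 8.89% after centring, and the median was -0.64. At the proximal edge of this window, a site from 98908196 to 98908980 had 58.0 with tetracycline and no hotspot without it, a fall of at least 6.31-fold. Within 50 kb the other DNBrg1 list held 3 hotspots, none under 30.9, so the local fall may be smaller than this bound. Lower values were found in the other lines too. Parental cells had 83.7 and 50.5, DNCHD4 cells 87.5 and 40.1, and DNSnf2h cells 17.9 and no hotspot.

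A strong type II site fell far more in DNBrg1 than elsewhere. From 101285086 to 101286382 its density went from 92.6 to 16.1, which is 5.76-fold lower (4.27 to 7.84). In parental cells it had 182 and 118, 1.54-fold lower (1.36 to 1.75). The DNCHD4 values were 220 and 134, 1.64-fold lower (1.49 to 1.80), and those of DNSnf2h 66.7 and 36.5, 1.83-fold lower (1.52 to 2.20). The counting intervals of the other 3 lines do not reach that of DNBrg1, also when each ratio is centred, at log2 -1.88 in DNBrg1 and -0.22, -0.75 and -0.85 in the others. With 1 library per state these intervals leave out the spread between libraries, and the difference between lines was not tested. A neighbouring site, from 101288638 to 101289409, was 3.16-fold lower in DNBrg1 (45.1 and 14.3) and 3.13-fold lower in DNSnf2h (41.6 and 13.3). It was 1.99-fold lower in parental cells (78.4 and 39.4) and 1.40-fold lower in DNCHD4 (74.8 and 53.5). The opposite direction was seen from 101875673 to 101876744, a site named after its values were seen. Density there went from 48.6 to 82.2 in DNBrg1, 1.69-fold higher (1.32 to 2.18), and from 91.5 to 116.6 in parental cells, 1.28-fold higher (1.10 to 1.48).

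DNCHD4 cells changed in both directions. Of 174 sites, 21 were at least 2-fold lower without tetracycline (12.1%, against 9.66% over the series) and 11 at least 2-fold higher (6.32%, against 7.75%). The median log2 ratio of 100 sites was 0.03 (SD 0.61), equal to that of the series. Centred counts were 22 lower (against 10.2%) and 9 higher (against 7.22%). By window, 9 of 81 type II sites were lower and 8 higher, and 12 of 93 type I sites were lower and 3 higher. Of these, sites listed in both libraries made up 1 lower and 1 higher in type II, and 5 and 3 in type I. A difference between the windows was not tested. Bounds underlie 15 of the lower and 7 of the higher calls, where 1 library had no hotspot. With the lowest hotspot within 50 kb as the bound, 1 of these 15 and 2 of these 7 stayed past 2-fold, which left 7 lower and 6 higher sites in all. Of these 7, only 6 could be set against such a hotspot. The rise starting at 101418407 had none within 50 kb and was left out of the count.

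Both of the highest rises of DNCHD4 were type II sites that no other library listed. One, from 101156330 to 101157122, had 63.1 without tetracycline, which is at least 7.83 times the minimum of the list with it. Another, from 101848246 to 101848970, had 40.5, at least 5.04 times that minimum. The DNCHD4 library with tetracycline listed 10 and 11 hotspots within 50 kb of them, the lowest at 17.7 and 15.03, against which the rises are 3.56-fold and 2.70-fold. The greatest fall was at the type I site from 100110070 to 100110947, with 59.6 in the presence of tetracycline and no hotspot in its absence, at least 11.7-fold lower. Within 50 kb the library without tetracycline held 12 hotspots, the lowest at 9.40, against which the fall is 6.34-fold. A type II site from 101151056 to 101151595 had 20.9 and no hotspot without tetracycline, a fall of at least 4.11-fold, but the hotspots within 50 kb there were all at 15.3 or more. Among sites listed in both DNCHD4 libraries the highest rise was 3.60-fold (2.56 to 5.14), from 8.05 to 28.98 at 99419648 to 99420320 in the type I window. The site was named after its values were seen. It was listed only without tetracycline in the other lines, at 20.3 in parental, 12.0 in DNBrg1 and 11.3 in DNSnf2h cells.

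DNSnf2h cells had few changed sites, which were lower in the type I window and of both directions in the type II window. Of 76 sites, 8 were at least 2-fold lower (10.5%, against 4.68% over the series) and 3 at least 2-fold higher (3.95%, against 1.93%). With bounds from hotspots within 50 kb, 4 were lower and 2 higher. The lower site starting at 99629531 had no such hotspot in the other list and was left out of the count. Centring left both counts at 8 and 3, against 4.47% and 2.07% over the series. The median log2 ratio of 37 sites was 0.03 (SD 0.66), beside -0.02. All 3 higher sites lay in the distal segment of the type II window, among 16 sites there, and 6 of the 8 lower sites were type I. This difference was not tested.

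The highest DNSnf2h rise was at the most distal type II site, from 102033249 to 102035024, which went from 10.5 to 24.0, 2.29-fold higher (1.66 to 3.21). DNCHD4 had 121 and 167 there, 1.38-fold higher (1.25 to 1.53), while parental cells had 122 and 101 and DNBrg1 134 and 109. From 101966179 to 101967215, DNSnf2h went from 27.5 to 55.8, 2.03-fold higher (1.66 to 2.50). That site was 1.70-fold lower in parental cells (228 and 134) and 1.91-fold lower in DNBrg1 (183 and 95.9). From 101935664 to 101936385, DNSnf2h had 17.5 without tetracycline only, or at least 2.18 times the minimum of the other list. That list held 9 hotspots within 50 kb, the lowest at 11.4, against which a 2-fold rise is not shown. The greatest fall was 3.20-fold (2.28 to 4.59), from 28.4 to 8.87 at the type I site from 100110070 to 100110947. A type I site from 99916779 to 99918190 was 2.08-fold lower by peak density (35.7 and 17.1), but its mean density gave a log2 ratio of -0.35, under 2-fold.

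On the deposited scale, lower sites recurred across lines more often than higher sites. The same held over the series, with 4428 lower and 312 higher sites in 2 or more lines. Of the 191 sites, 35 were at least 2-fold lower in 1 line, 15 in 2 and 5 in 3 lines, and 0 in all 4. By contrast 14 sites were at least 2-fold higher in 1 line and 0 in more than 1 (against 0.312% of all sites). Sites lower in 2 or more lines made up 10.5% of the sites of the windows and 4.43% of all sites. A site listed in 1 library cannot be lower in 2 lines. Such sites were 37.2% of the windows and 51.4% of all sites, so the 2 shares are not like for like. After centring, 30 sites of the windows were lower in 1 line, 5 in 2 and 3 in 3 lines, or 4.19% in 2 or more against 2.11% of all sites. Higher sites then numbered 15 in 1 line and 1 in 2 lines, or 0.524% in 2 or more against 0.755% of all sites. No site of the windows was lower in 1 line and higher in another, as deposited or centred. Such sites were not counted over the series, so this has no share to stand beside. The 5 sites include those starting at 98908196, 100110070 and 101927972, described above. Of the others, the type I site from 99981556 to 99982399 had 34.2 and 13.1 in DNCHD4 cells. With tetracycline it had 16.4 in parental, 21.7 in DNBrg1 and 25.2 in DNSnf2h cells, and none of these lines listed it without. The type II site from 101981113 to 101981734 had 24.5, 26.95 and 20.8 with tetracycline in parental, DNBrg1 and DNCHD4 cells, and was listed in no library without it. It was in neither DNSnf2h library. Most of these calls rest on bounds. Taking the lowest hotspot within 50 kb as the bound, the site starting at 101981113 showed a 2-fold fall in no line, with neighbours at 16.2, 14.3 and 21.9 in parental, DNBrg1 and DNCHD4 cells. The site starting at 98908196 then kept DNCHD4 alone, being 1.88-fold lower in DNBrg1 and 1.59-fold lower in DNSnf2h. In DNSnf2h the sites starting at 101927972 and 99981556 were 1.59-fold and 1.79-fold lower. Of the 5 sites, the one starting at 100110070 was past 2-fold in 3 lines on that basis. Of the 23 sites listed in all 8 libraries, 6 were lower without tetracycline in every line and 1 was higher in every line, as deposited. Over the series, 3817 of 12592 such sites were lower and 455 higher in every line. After centring the numbers were 5 and 4 in the windows, and 2184 and 2303 over the series.

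At the window edges, the first type II site, starting at 101004011, had 60.5 in parental cells with tetracycline, and the nearest site outside, starting at 100994095, had 32.2. The last one, starting at 102033249, had 122, and the next outside, starting at 102060885, had 54.6. In the type I window the first site, starting at 98900933, had 28.8, and the nearest outside, starting at 98885104, had 189. The last type I site was listed in DNCHD4 and DNSnf2h cells with tetracycline only, at 12.5 and 8.22, and the next outside, starting at 100224385, only in DNCHD4 cells without it, at 11.6.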

How the data were processed

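DNase-seq was done on 8 libraries, 1 per line and tetracycline state, grouped by the submitters' labels. Per the submitters' processing notes the tool was CASAVA 1.6 and the build mm9. No source used here names the hotspot caller. For every library the authors deposited a list of hotspots with a highest and a mean tag density, a signal scaled to an unstated target. The deposited score (a z-score) and the deposited p-value of each hotspot were not used for any result.

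Hotspots of all 8 lists sharing 1 bp or more were merged into sites, and the highest peak density in a library was taken as the value of the site. In each library every peak density was a multiple of a single step, within 0.05 tags, and dividing by the step gives tags. Ratios are without over with tetracycline. A site absent from 1 list was set against the lowest density of that list, which gives a bound. At the named sites that rest on a bound, no hotspot number was missing at the position in the other list. Intervals are exact binomial (Clopper-Pearson) intervals on tags at 95% and leave out all but counting error, because duplicate fragments cannot be recognised. Named sites were the 5 with the highest density in each window, and per line the 2 greatest rises and falls past 2-fold, and others are marked as chosen after their values were seen. Members, lists and segments were chosen with earlier results of these data known, and the TATA motif was added after the data were seen. Alternatives were centring, mean density, a common threshold, no bounds, merging within a line and an overlap of at least 50%. Bounds taken from the lowest hotspot within 50 kb were added after the data were seen. Simulated lists were used to test the merging and calling. Software was scipy 1.17.1, matplotlib 3.10.9, pandas 2.3.3 and numpy 2.4.6 under Python 3.11.15.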

Additional observations from a re-analysis of the deposited data

How the results depend on the processing

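No paired analysis was possible because each group has 1 library, so a comparison within a line has a single pair. For the same reason no replicate could be left out. A fit over all 8 libraries with line as a block, which would take lines with different proteins as replicates, was not run. Of the 72 values of the main counts and medians under the 6 alternatives planned, 57 stayed within 1.5 times the count or within the counting error of a site, and 15 did not. Centring moved the parental counts from 17 to 5 lower and from 0 to 1 higher sites and the median log2 ratio from -0.51 to -0.11. It moved the DNBrg1 counts from 34 to 14 lower and from 0 to 4 higher and the median from -0.76 to -0.12. With a common threshold the lower sites numbered 10 (parental), 18 (DNBrg1) and 13 (DNCHD4). Without bounds fewer sites are counted. Then 9 parental, 19 DNBrg1, 6 DNCHD4 and 4 DNSnf2h sites were lower, and 4 DNCHD4 sites were higher. The lower share of DNCHD4 went from 12.1%, against 9.66% over the series, to 6.0%, against 7.87%. The lower shares without bounds were 12.5% in parental (against 8.70%), 35.2% in DNBrg1 (26.2%) and 10.8% in DNSnf2h (6.74%). Bounds from hotspots within 50 kb, an alternative chosen after seeing the data, left 7 lower and 6 higher sites in DNCHD4 and 4 lower in DNSnf2h. Sites with no hotspot within 50 kb in the other list could not be assessed and were left out of these counts. Merging within the line gave 1 higher parental site. With mean density the small medians of DNCHD4 and DNSnf2h changed sign, from 0.03 in both to -0.06 and -0.096. The scaling target and total depth are unknown, so the direction of the parental and DNBrg1 shift depends on the deposited scale. No named site that was past 2-fold changed direction under centring or mean density, but some fell short of 2-fold. After centring these were the DNBrg1 sites starting at 101198430, 99061175 and 99916779, at log2 ratios of -0.37, -0.38 and -0.67, and the parental site starting at 101151056, at -0.62. With mean density they were 99061175 and 99916779 in DNBrg1, at -0.90 and -0.91, 101927972 in DNCHD4, at -0.96, and 99916779 in DNSnf2h, at -0.35.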

Other observations

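A dense group of weak hotspots lay in the middle of the type I window. From 99535244 to 99560068 on chromosome 11, 24.8 kb held 18 sites, of which 11 were listed in 1 library. The DNSnf2h libraries listed 9 of them with and 8 without tetracycline, at 8.40 to 10.8 and 9.47 to 13.1. DNCHD4 cells without tetracycline listed 8, at 6.66 to 9.20, and DNBrg1 cells without tetracycline 3, at 10.2 to 10.97. Parental cells listed 0 with and 1 without tetracycline, and DNBrg1 and DNCHD4 cells with tetracycline listed 0. The lists of parental and DNBrg1 cells with tetracycline begin at 13.02 and 16.4, so densities of this size would not be in them. The stretch was chosen after the values were seen.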
